A study of Paralichthys olivaceus with 24 samples.

Results

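The comparison described here is the course of gene expression in the spleen of poly(I:C)-treated Japanese flounder (Paralichthys olivaceus) held at 25 °C, from 3 h to 24 h. Its members are 3 arrays of spleens taken at 24 h and 3 arrays of spleens taken at 3 h, all from poly(I:C) fish at 25 °C, which makes 6 of the 24 arrays of the series. They were chosen by their labelled treatment, temperature and time, and all non-control probes entered. The other groups used below, with 3 arrays for each time, are water fish at 25 °C, poly(I:C) fish at 15 °C and water fish at 15 °C, each at 24 h and at 3 h. The control fish received DEPC-treated water, which is water freed of RNA-degrading enzymes, and all groups are spleen total RNA. Whether the arrays of a group came from different fish is not stated in the labels. The p-values therefore refer to the spread among arrays within groups, pooled over all 24 arrays, part of which may be technical.

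Poly(I:C) is a synthetic double-stranded RNA that stands in for the RNA of a replicating virus. Vertebrate cells sense such RNA through Toll-like receptors in endosomes and through RIG-I-like receptors in the cytosol, and both routes lead to interferon and to the products of interferon-stimulated genes, with inflammatory signals beside them. The spleen is a main blood-filtering and lymphoid organ of bony fish, and a flounder's body temperature follows that of the water.

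The arrays carried 14481 non-control probes, and 13377 of them were tested, namely those that were well above background throughout at least 1 of the 8 groups of 3 arrays. Targets are listed by contig codes or by database accessions. None of the 14478 distinct names (0) was found in the gene table used here, so no probe is named by gene, no gene list or cell marker could be read, and the spleen label was not checked against markers. In a whole organ, fewer cells of a type and less RNA per cell cannot be told apart. Values are log2 signals relative to the 75th percentile of each array, and a probe was called at a limma adjusted p under 0.05.

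The 6 arrays were not spread evenly over slides. All 3 arrays at 3 h and replicate 1 at 24 h lay on slide 2, and replicates 2 and 3 at 24 h lay on slide 3. The water arrays at 25 °C all lay on slide 3, so at that temperature poly(I:C) and water fish shared a slide at 24 h, for 2 of the 3 poly(I:C) arrays, and shared none at 3 h. Replicate 1 stood apart from the other 2 arrays at 24 h on the second principal component of all 24 arrays (17.8% of the variance), at 5.15 against -22.4 for replicate 2 and -21.4 for replicate 3. On the first component (36.0% of the variance) the 24 h arrays lay at -8.52, -26.3 and -17.5, and the 3 h arrays at 67.3, 73.5 and 77.0. Correlations across probes ran from 0.975 to 0.983 among the 24 h arrays, from 0.983 to 0.988 among the 3 h arrays, and from 0.919 to 0.944 between the times. Each array thus resembled those of its own time more than those of the other. Replicate 1 at 24 h, on the slide of the 3 h arrays, had 0.931 to 0.944 with them. Replicates 2 and 3, on slide 3, had 0.919 to 0.933 with the 3 h arrays.

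From 3 h to 24 h, 5967 probes changed, 44.6% of those tested. At 24 h 3200 were higher (23.9% of those tested) and 2767 were lower (20.7%), a balance that median scaling turned, to 2652 higher and 3312 lower, while quantile scaling (3202 and 2583) and normexp (1668 and 1346) did not. The probes that rose had a median log2 change of 0.85, or 1.81-fold, and those that fell had a median of -0.88. The median of all tested probes was 0.041, and it was -0.066 with median scaling and 0.33 with normexp.

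The largest changes were mostly falls. Among called probes, at least 2-fold changes were about evenly split, 1198 higher and 1179 lower (8.96% and 8.81% of those tested). At least 4-fold there were 198 higher and 354 lower, at least 8-fold 15 and 133, and at least 16-fold 3 and 64. Past 32-fold all 38 were lower. The falls of at least 8-fold outnumbered the rises under each of the 6 other settings tried, with 116 falls and 13 rises under quantile scaling, 150 and 9 under median scaling, 74 and 2 under normexp, and 140 and 17 within slide 2.

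**Figure D1:**
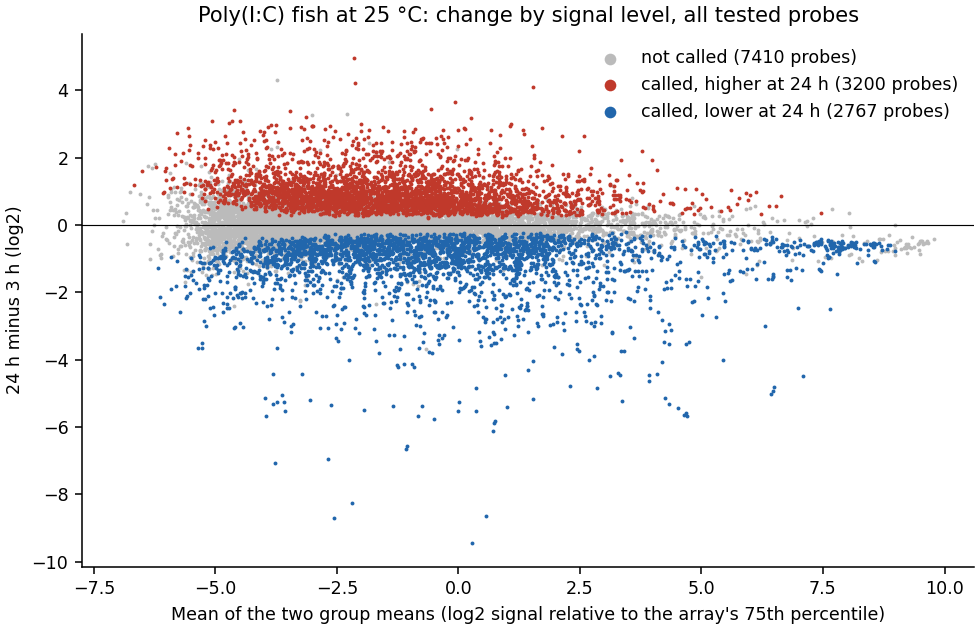
Change of each of the 13377 tested probes between the 24 h and the 3 h arrays of poly(I:C) fish at 25 °C (24 h minus 3 h, log2, vertical axis) by the mean of the 2 group means (log2 signal relative to the array's 75th percentile, horizontal axis). Points are probes, 3200 called higher, 2767 called lower (2652 and 3312 with median scaling) and the rest not called; the cloud reaches further down, to -9.44, than up, to 4.96.

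Brighter probes were called more often. Of 4 bins of equal size by mean signal over the 6 arrays, the dimmest had 29.2% of its probes called, the next 42.5%, the next 51.1% and the brightest 55.7%. The median SD between the 24 h arrays was 0.32 in the dimmest bin and 0.12 in the brightest, and that between the 3 h arrays was 0.29 and 0.15, while the median size of change was much the same in both (0.47 and 0.51). In the brightest bin 735 probes were called higher and 1129 lower, and quantile scaling turned this to 1033 and 693. In the dimmest bin 585 were higher and 391 lower, which median scaling turned to 484 and 501.

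The 3 arrays at 24 h and the 3 at 3 h did not overlap for 7453 probes, 55.7% of those tested, beside the 44.6% that were called. Of the called probes, 3051 that rose and 2677 that fell did not overlap, and 239 called probes did. Replicate 1 at 24 h, the array that shared the slide of the 3 h arrays, lay above all 3 h arrays for 3113 of the 3200 probes that rose and below all of them for 2707 of the 2767 that fell. Its median distance from the 3 h mean was 0.84 over the probes that rose and -0.81 over those that fell. The corresponding medians were 0.89 and -0.91 for replicate 2 and 0.81 and -0.93 for replicate 3. All 3 arrays at 24 h, replicate 1 among them, entered the calls that chose these probes. These counts and medians are therefore a description and no check of the slide.

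A block for the slide left 3911 calls, 2191 higher and 1720 lower, and the arrays of slide 2 alone, 1 against 3, gave 3463. Both settings take the log2 change from replicate 1 alone at 24 h and have different spreads only, so they count as 1 check. The probes called without the block had a median size of 0.87 without it and 0.83 with it, and 99.7% of them kept their direction. Replicate 1 and the same 3 h arrays entered the calls that chose these probes, so that share is a description. Over all probes the median SE was 0.28 with the block and 0.20 without it.

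For the course, the naming rule took called probes well above background on all 6 arrays, with no overlap between the 24 h and 3 h arrays. That lack of overlap was thus required of the probes it named. The probe that rose most by this rule was CUST_5622_PI426483990 (contig JFC18874_1_code). It had log2 signals of 0.12, 0.095 and -0.30 at 24 h, against -3.90, -4.52 and -4.29 at 3 h. All 24 h arrays lay well above all 3 h arrays, and the change was 4.21 (SE 0.32, limma adjusted p = 4.9e-09), or 18.5-fold. In water fish at 25 °C it was at 0.38 ± 0.25 at 24 h and 0.069 ± 0.53 at 3 h (SD, n = 3 each). The poly(I:C) fish at 3 h were thus the low group at 25 °C, and at 24 h all 3 poly(I:C) arrays lay below the 3 water arrays, the nearest by a small gap (0.12 against 0.14). In poly(I:C) fish at 15 °C the order was the opposite, with -3.19 ± 0.78 at 24 h and -0.056 ± 0.32 at 3 h (SD, n = 3 each).

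CUST_12615_PI426483990 (contig JFC20493_1_code), next in size, is a brighter probe, whose lowest arrays at 25 °C were also those of poly(I:C) at 3 h. It had 3.67, 3.55 and 3.52 at 24 h, against 0.092, -0.46 and -1.22 at 3 h. The groups did not overlap, and the change was 4.11 (SE 0.27, limma adjusted p = 6.6e-10). Water fish at 25 °C had 4.17 ± 0.061 at 24 h and 3.45 ± 0.32 at 3 h (SD, n = 3 each), so every poly(I:C) array at 24 h lay below every water array of that time. Poly(I:C) fish at 15 °C had -0.24 ± 0.59 at 24 h and 2.48 ± 0.036 at 3 h (SD, n = 3 each).

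CUST_13312_PI426483990 (contig JFC03172_1_code) fell most. It had -4.94, -4.41 and -3.95 at 24 h, against 4.60, 4.77 and 5.64 at 3 h. The 2 times lay far apart, and the change was -9.44 (SE 0.89, limma adjusted p = 8.4e-08). Its 24 h signals were near the lowest that were well above background on those arrays, -5.47, -4.95 and -4.91. With normexp the change was -7.13. In water fish at 25 °C it was well above background on 1 of 3 arrays at 24 h, where its signals were -2.49, -5.59 and -4.86, and on all 3 arrays at 3 h, at -2.58, -2.58 and -2.42. The poly(I:C) arrays at 24 h thus lay within the range of the water arrays of that time. Poly(I:C) fish at 15 °C had 2.11 ± 0.31 at 24 h and -2.07 ± 1.08 at 3 h (SD, n = 3 each).

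CUST_6587_PI426483990 (contig JFC00244_1_code) had -4.51, -3.37 and -3.42 at 24 h, against 4.52, 4.65 and 5.52 at 3 h. Its groups did not overlap, and the change was -8.66 (SE 0.79, limma adjusted p = 4.9e-08). Water fish at 25 °C had -1.95, -3.31 and -2.66 at 24 h and -1.84, -2.41 and -2.06 at 3 h. All 3 poly(I:C) arrays at 24 h were below all 3 water arrays of that time, the nearest by a small gap (-3.37 against -3.31). At 3 h all 3 poly(I:C) arrays were above all 3 water arrays. Whether this probe and CUST_13312_PI426483990 read the same transcript was not tested.

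**Figure D2:**
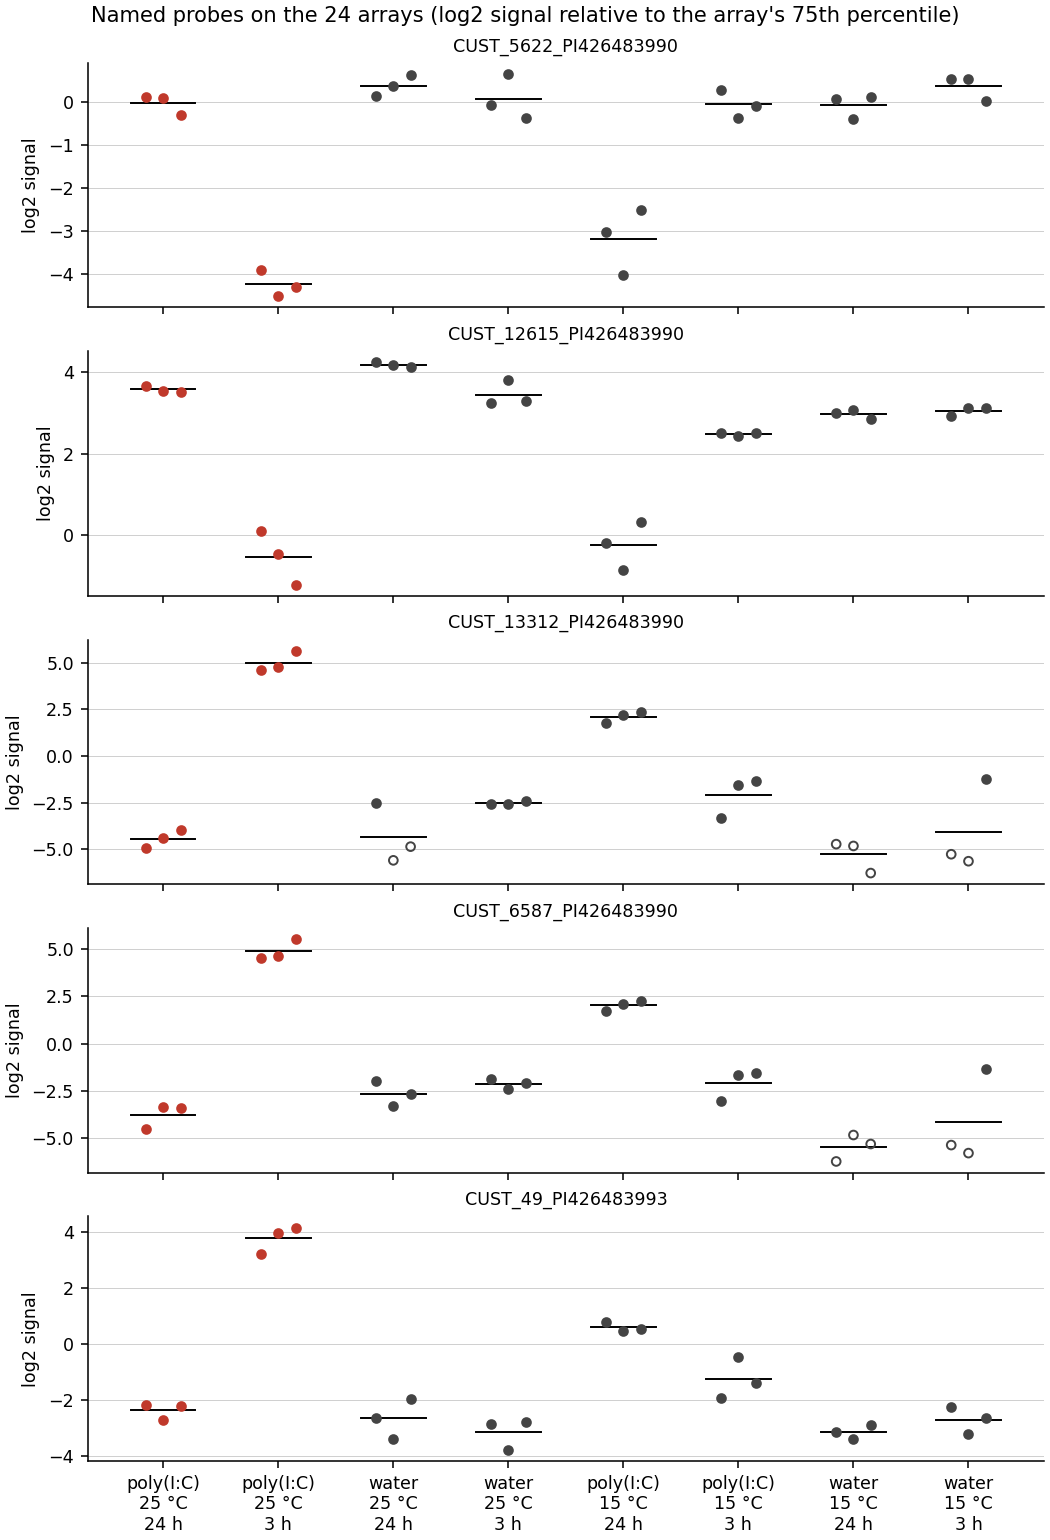
Signal of the 5 named probes on each of the 24 arrays (log2 relative to the array's 75th percentile; points are arrays, bars are group means, and open points are arrays on which the probe was not well above background). Arrays of poly(I:C) at 25 °C are in red, and in each panel the 3 h arrays of that treatment stand apart from its 24 h arrays and from both water groups at 25 °C.

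Some probes were measured at 1 time only. Of those tested, 82 were well above background on all 24 h arrays and on no 3 h array, and 66 of these were called, each at least 1.39-fold to at least 5.48-fold higher at 24 h. The reverse held for 73 probes, well above background on all 3 h arrays and on no 24 h array. Of these 60 were called, each at least 1.16-fold to at least 132.5-fold lower at 24 h, with 13 at least 8-fold lower. These bounds set the mean of the bright group against, on each dim array, the larger of 2 values, the probe's own signal and the lowest signal that was well above background there. Both classes were chosen by their signal at 1 time only, so their direction, and largely their calls, follow from that choice. Of all tested probes 44.6% were called. On all 6 arrays 11769 probes were well above background, and 5420 of them were called (46.1%), 2904 higher and 2516 lower.

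The array repeats 20 probes in 10 spots each, and 17 of these were tested. Of the 17, 8 were called, 2 higher and 6 lower, a share near the 44.6% called among all tested probes. Their largest change was 2.72 in size. Their median SD was 0.057 over the spots of 1 array, 0.14 between the 24 h arrays and 0.16 between the 3 h arrays, so most of the spread lay between arrays. By target, 44.5% of the 13026 tested probes to JFC contigs were called, 49.9% of the 337 to database accessions and 44.6% of all tested. The median size of change was 0.47 for the JFC contigs and 0.69 for the accessions, and called falls of at least 4-fold made up 9.79% of the accession probes (33 of 337), against 2.46% of the JFC contigs (320) and 2.65% of all tested. Called rises of that size made up 2.08% of the accession probes (7), against 1.47% of the JFC contigs (191) and 1.48% of all tested. No test was made of this difference.

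The first question the design raises is how far the course belongs to water fish as well. At 25 °C the water fish had 1024 called probes between 24 h and 3 h (7.65% of those tested), 599 higher (4.48%) and 425 lower (3.18%). When limma was fitted to the 2 water groups alone 0 probes were called, with 1871 at an unadjusted p under 0.05. The median SD between arrays was 0.20 in water fish at 24 h and 0.27 in water fish at 3 h, against 0.18 and 0.19 in the poly(I:C) fish at 24 h and 3 h. The water course shares no array with that of the poly(I:C) fish, and all its arrays lay on slide 3. Across the 13377 probes, which are not independent replicates, the poly(I:C) course had a Pearson r of 0.29 with the water course (Spearman 0.26).

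Of the 3200 probes that rose with poly(I:C), 375 rose in water fish too (11.7%, against 4.48% of all tested) and 13 fell. Of the 2767 that fell with poly(I:C), 296 fell in water fish, where 3.18% of all tested probes fell, and 60 rose. The median water change was 0.18 over the probes that rose and -0.070 over those that fell, against 0.049 over all probes.

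The difference of the 2 courses was tested as an interaction. It was called for 3447 probes (25.8% of those tested), 1696 more positive with poly(I:C) (12.7%) and 1751 more negative (13.1%). Median scaling gave 1301 and 2158, and quantile scaling 1805 and 1495. Since this test uses the same poly(I:C) arrays as the course, its calls are set beside those of the course as values only. Among probes that rose, 1561 had a course more positive than in water and 0 a more negative one, and among probes that fell 1569 had a more negative and 2 a more positive one. The median difference from the water course was 0.69 over the probes that rose and -0.83 over those that fell. A block for the slide left 2222 probes called for this difference.

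Other than CUST_49_PI426483993, the probes named for this interaction are described above. The differences from the water course were 3.89 for CUST_5622_PI426483990 (SE 0.45, limma adjusted p = 4.8e-06), 3.38 for CUST_12615_PI426483990 (SE 0.38) and -8.12 for CUST_6587_PI426483990 (SE 1.11, limma adjusted p = 3e-05). The other named probe, CUST_49_PI426483993 (database accession AB435094), had -2.17, -2.71 and -2.21 with poly(I:C) at 24 h, against 3.19, 3.97 and 4.15 at 3 h. In water fish at 25 °C it had -2.63, -3.39 and -1.96 at 24 h and -2.86, -3.78 and -2.80 at 3 h. Only the poly(I:C) arrays at 3 h stood apart among these 12 arrays, and the difference between the courses was -6.62 (SE 0.55, limma adjusted p = 8.4e-08).

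The levels in poly(I:C) and water fish were set side by side at each time. Over the 3200 probes that rose, the median level was -0.99 with poly(I:C) at 24 h and -1.98 with poly(I:C) at 3 h, beside -0.96 in water at 24 h and -1.17 in water at 3 h. Over the 2767 probes that fell, it was -1.01 with poly(I:C) at 24 h and 0.047 with poly(I:C) at 3 h, beside -1.13 in water at 24 h and -0.93 in water at 3 h. In both sets the 3 h arrays of poly(I:C) lay apart from all water arrays at 25 °C, and the medians at 24 h lay between those of water at the 2 times. The median difference from water was -0.083 at 24 h and -0.75 at 3 h over the probes that rose, and -0.092 at 24 h and 0.71 at 3 h over those that fell. All tested probes had medians of -0.16 at 24 h and -0.15 at 3 h. At 3 h, but for the most part not at 24 h, the treatment goes together with the slide. With the slide as a block, the medians were -0.092 at 24 h and -0.74 at 3 h over the probes that rose. Over those that fell they were -0.12 at 24 h and 0.62 at 3 h. That block takes the shift between slides 2 and 3 from the 24 h poly(I:C) arrays at 25 °C alone, replicate 1 against replicates 2 and 3. It is therefore no separate check of the slide. All these differences from water share the poly(I:C) arrays with the course, which chose the sets, and are given as a description.

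**Figure D3:**
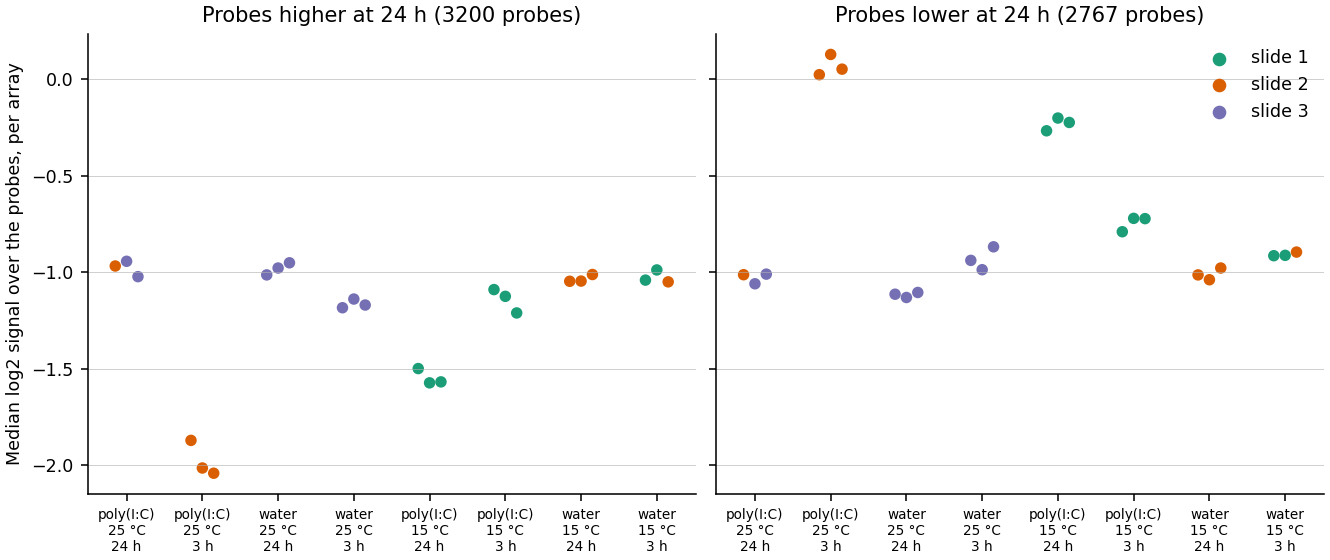
Median log2 signal (relative to the array's 75th percentile) over the 3200 probes called higher and the 2767 called lower at 24 h in poly(I:C) fish at 25 °C (2652 and 3312 with median scaling), on each of the 24 arrays, coloured by slide. At 3 h the poly(I:C) arrays at 25 °C are the lowest for the first set, between -2.04 and -1.87, and the highest for the second, between 0.023 and 0.13, while the 24 h array of slide 2 lies with those of slide 3. All poly(I:C) arrays at 25 °C entered the calls that chose these sets, so their positions are a description and no check of the slide.

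How much of the 3 h difference from water was left at 24 h can be read from arrays that the 2 times do not share. At 3 h 1117 probes were at least 2-fold higher with poly(I:C) than with water (8.35% of those tested) and 1643 at least 2-fold lower (12.3%). At 24 h the counts were 253 higher (1.89%) and 590 lower (4.41%). The 3 h counts again set slide 2 against slide 3. A block for the slide gave 310 higher and 530 lower at 24 h, and 1201 higher and 1567 lower at 3 h. Its shift between slides 2 and 3 comes from the 24 h poly(I:C) arrays alone, so with the block both times use those arrays. Of 143 probes at least 8-fold higher at 3 h, 53 were still at least 2-fold higher at 24 h (37.1%), with a median log2 difference of 0.72 at 24 h and 4.10 at 3 h. Of 173 probes 4-fold to 8-fold higher at 3 h, 18 were (10.4%), and of 801 probes 2-fold to 4-fold higher, 40 were (4.99%).

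On the other side, 177 probes were 4-fold to 8-fold lower with poly(I:C) at 3 h, and 39 of them were still at least 2-fold lower at 24 h (22.0%). Of the 1448 probes 2-fold to 4-fold lower at 3 h, 172 were (11.9%). The bin of at least 8-fold lower held 18 probes only, 8 of them still at least 2-fold lower at 24 h. Among the 143 probes highest at 3 h, 3 were at least 2-fold lower than in water at 24 h. The bins were cut by the 3 h values, so the 3 h medians describe the choice, and no test was made. Restricted to probes well above background on all 12 arrays at 25 °C, 46 of 112 probes at least 8-fold higher at 3 h were still at least 2-fold higher at 24 h (41.1%). On the lower side under this restriction, 0 of 5 probes at least 8-fold lower at 3 h were still at least 2-fold lower at 24 h, so the 8 probes of that bin counted above were not well above background throughout. The shares there were 19.4% of 98 probes 4-fold to 8-fold lower and 8.30% of 1096 probes 2-fold to 4-fold lower.

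**Figure D4:**
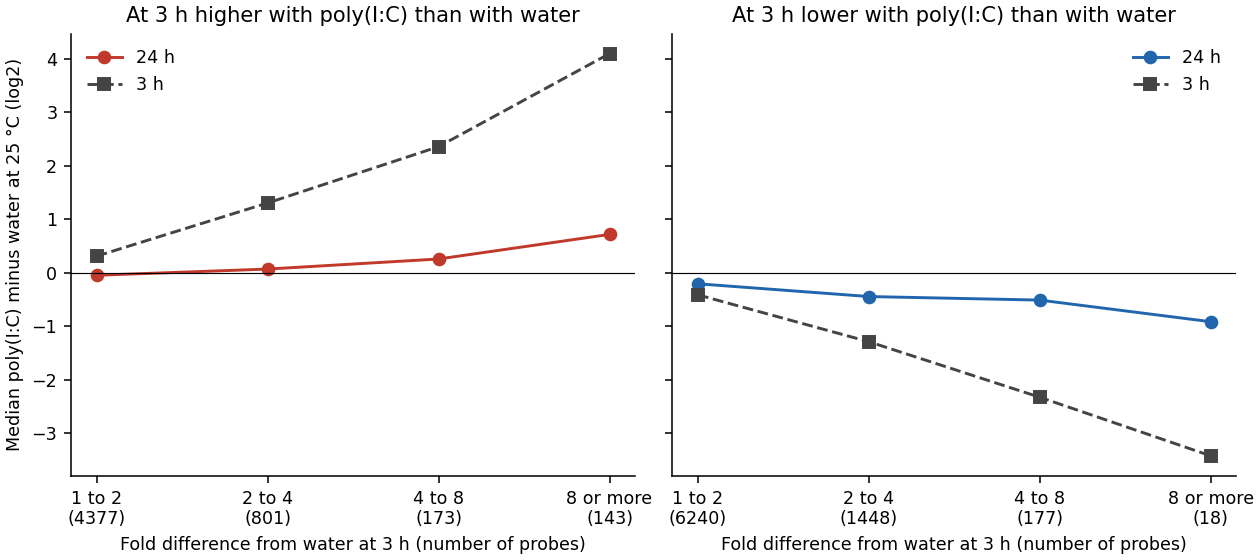
Median difference between poly(I:C) and water fish at 25 °C (log2, vertical axis) at 24 h (circles) and 3 h (squares), for probes binned by their fold difference at 3 h (horizontal axis, number of probes in brackets). The 24 h medians stay between -0.91 and 0.72, while the 3 h medians, which define the bins, reach 4.10 and -3.42; the last bin on the right holds 18 probes.

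The second question is whether the course depends on temperature. At 15 °C the poly(I:C) fish had 4991 called probes between 24 h and 3 h (37.3% of those tested), 2560 higher (19.1%) and 2431 lower (18.2%). That course shares no array with the one at 25 °C. Across the 13377 probes the 2 courses had a Pearson r of -0.40 (Spearman -0.41), as a description of probes that share arrays within each course. With replicate 1 at 24 h alone, on slide 2, the r was -0.36, and with replicates 2 and 3, on slide 3, it was -0.40. Both versions subtract the same 3 h mean, from slide 2, so they are not separate readings of the slides. Slide 1 held all 6 arrays of the course at 15 °C.

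Many probes moved one way at 25 °C and the other way at 15 °C. Of the 3200 probes that rose at 25 °C, 1248 fell at 15 °C (39.0%, against 18.2% of all tested), which is 51.3% of the probes that fell at 15 °C, and 269 rose there (8.41%, against 19.1%). Of the 2767 that fell at 25 °C, 1268 rose at 15 °C (45.8%, against 19.1% of all tested), which is 49.5% of the probes that rose at 15 °C, and 265 fell there (9.58%, against 18.2%). The opposite calls outnumbered the like ones under each of the 5 other settings with a value at 15 °C. Without replicate 1 at 24 h there were 1184 and 1237 opposite calls, against 245 and 246 like ones, with the slide as a block 937 and 902, against 185 and 193, and with normexp 532 and 584, against 51 and 100.

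The levels of these sets place the difference. The 1248 probes that rose at 25 °C and fell at 15 °C had medians at 25 °C of -0.74 with poly(I:C) at 24 h and -1.88 at 3 h. At 15 °C their medians with poly(I:C) were -1.65 at 24 h and -0.67 at 3 h. In the 4 water groups their medians lay between -0.84 and -0.57. The low groups were thus the 3 h fish at 25 °C and the 24 h fish at 15 °C, and the medians of the other poly(I:C) groups lay within the range of the water medians. At 15 °C and 24 h all poly(I:C) arrays lay on slide 1 and all water arrays on slide 2. The treatment therefore goes together with the slide there too, for this set and for those below.

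The 1268 probes that fell at 25 °C and rose at 15 °C showed the mirrored order. With poly(I:C) their medians at 25 °C were -0.80 at 24 h and 0.38 at 3 h. At 15 °C they were 0.39 at 24 h and -0.78 at 3 h, and in the 4 water groups they lay between -1.06 and -0.84. These sets were chosen by both courses, so their levels are a description.

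The sets that moved alike at both temperatures were smaller and had another order of levels. The 265 probes that fell in both had poly(I:C) medians at 25 °C of -0.88 at 24 h and 0.45 at 3 h, and at 15 °C of -0.83 at 24 h and 0.61 at 3 h. They were high at 3 h at either temperature, with water medians between -0.93 and -0.44. The 269 probes that rose in both had -0.16 at 24 h and -1.09 at 3 h at 25 °C, and -0.40 at 24 h and -1.05 at 3 h at 15 °C. Their water medians lay between -0.84 and -0.71. At either temperature their poly(I:C) medians were below those of water at 3 h and above them at 24 h. Both sets were chosen by their change from 3 h to 24 h at both temperatures. Their levels, also beside water, are therefore a description.

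**Figure D5:**
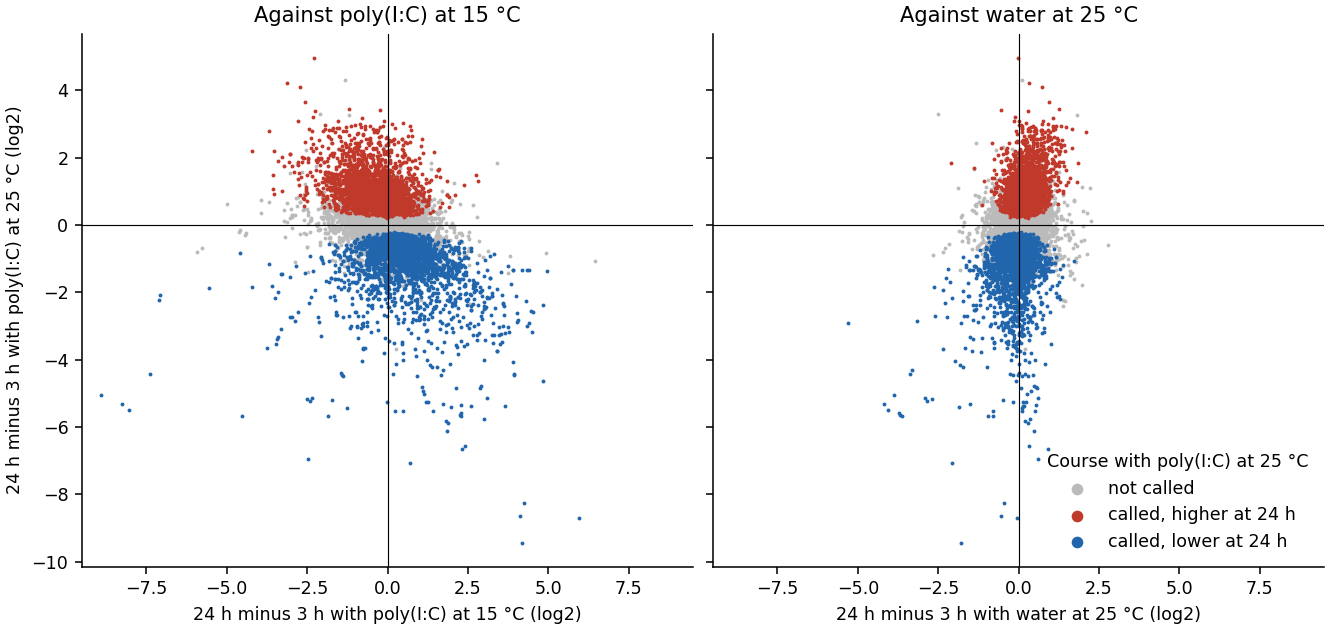
Course with poly(I:C) at 25 °C (24 h minus 3 h, log2, vertical axis) of the 13377 tested probes against the course with poly(I:C) at 15 °C (left) and with water at 25 °C (right), neither of which shares an array with it. Colours give the call at 25 °C; the Pearson r is -0.40 on the left and 0.29 on the right, where the water changes span a narrower range.

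The difference between the courses at 25 °C and 15 °C was called for 6512 probes (48.7% of those tested), 3443 more positive at 25 °C (25.7%) and 3069 more negative (22.9%), and for 2890 and 3777 with median scaling. The named differences are the largest among called probes well above background on all arrays compared. The positive ones were 7.34 for CUST_5622_PI426483990 (SE 0.45, limma adjusted p = 1.4e-10) and 6.83 for CUST_12615_PI426483990 (SE 0.38, limma adjusted p = 3.6e-11). The negative ones were -13.6 for CUST_13312_PI426483990 (SE 1.26, limma adjusted p = 4.3e-08) and -12.8 for CUST_6587_PI426483990 (SE 1.11, limma adjusted p = 1.8e-08). With normexp these 2 were -10.7 and -10.3. All 4 had changes of opposite direction at both temperatures that passed the test, with courses at 15 °C of -3.13, -2.72, 4.18 and 4.11 in that order. A block for the slide left 5281 probes called for it.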

How the data were processed

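Spleen RNA was hybridised to 24 single-colour (Cy3) Agilent arrays. The deposited scanner files hold linear spot intensity with the background subtracted and, per the file headers, no scaling between arrays; the headers name Feature Extraction 10.7.3.1; the submitters' processing notes name 9.5.3.1. The value table deposited by the authors holds log2 values, with scale, centring and direction unstated. Set against the scanner values, 100% of its values lay within 0.02 of the values used here after 1 constant per probe, so scale and direction are those of the 75th percentile scaling and the centring of each probe stays unknown; its column medians ran from -0.16 to 0.11.

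Control spots were dropped, as were 2 to 22 outlier-marked spots on each array; 0 spots were saturated. A fit drops an array on which a probe is missing, as for 14 tested probes among the 6 arrays. Repeated spots were averaged per probe on the log2 scale, and each array's 75th percentile, 348.1 to 863.5 units, was subtracted. The number of arrays limits the precision. Group means were estimated over all 24 arrays in R 4.3.3 by limma (version 3.58.1; lmFit, then eBayes; 16 residual degrees of freedom, prior 2.65), with Benjamini-Hochberg adjustment within each comparison. The fit and its counts were tested on simulated data with independent arrays and no shift between slides, so that test does not cover the slides. Leaving out 1104 probes, 13377 were tested.

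The comparison and its lists were chosen with earlier results of these data known. Named probes are the 2 with the largest log2 value in each direction among called probes well above background on all arrays compared, with no overlap between groups for the course itself. Marker and gene lists were not used, since no target is named. The replicate number was tried as a block. Deviations from the group means had an r of 0.15, 0.14 and 0.17 between same-numbered arrays of the 2 times. For the other pairs of arrays the r ran from -0.185 to 0.0174. Deviations from a group mean are tied to each other, so these are not separate readings. The other alternatives were quantile and median scaling, normexp (offset 50), the deposited table, no filter, a stricter filter, another prior, the compared groups alone, the slide, stricter thresholds and leaving out each array. Normexp used the median spot signal, as the mean signal is not among the columns used.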

Additional observations from a re-analysis of the deposited data

Results flagged for a closer look

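The change between 3 h and 24 h in poly(I:C) fish at 25 °C differed, by the interaction test across all probes, from the same change in water fish for 3447 probes and from that in poly(I:C) fish at 15 °C for 6512. The named probes are given here because the test of the difference itself was passed. Against water the differences were 3.89 for CUST_5622_PI426483990, 3.38 for CUST_12615_PI426483990, -8.12 for CUST_6587_PI426483990 and -6.62 for CUST_49_PI426483993. Against 15 °C they were 7.34 for CUST_5622_PI426483990, 6.83 for CUST_12615_PI426483990, -13.6 for CUST_13312_PI426483990 and -12.8 for CUST_6587_PI426483990. Each of these 8 values kept its direction and stayed under an adjusted p of 0.05 in limma under the 23 alternatives run for it. The probes were chosen as the largest called differences, and the alternatives reuse the same arrays. That they stayed is therefore a description and no separate check. The course at 25 °C used slides 2 and 3, and the course at 15 °C used slide 1.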

How the results depend on the processing

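For the course at 25 °C, 5967 probes were called. The count was 3014 with normexp, 3911 with the slide as a block, 3463 within slide 2, 2377 at 2-fold or more, and 5091 to 5779 without 1 array. With the replicate number as a block it was 5866, and 5553 with that block and the compared groups alone, an alternative added after the data were seen, as were the counts by size, by direction at 15 °C and against water under other settings. For the difference from water (3447) the counts were 977 with normexp, 2222 with the slide as a block, 2078 at an adjusted p under 0.01, 1868 at 2-fold or more, and 2855 to 3899 without 1 array. For the difference from 15 °C (6512) they were 3457 with normexp and 6011 to 6471 without 1 array. The course at 15 °C (4991) had 2245 with normexp, 2022 at 2-fold or more, and 4268 to 4395 without 1 array. The water course (1024) had 127 with normexp, 0 with the 2 groups alone, 394 at an adjusted p under 0.01, 224 at 2-fold or more, and 584 to 1454 without 1 array. It had 651 without replicate 2 of water at 24 h and 584 without replicate 3 of water at 3 h. The replicate block gave 3366, 6432, 4893 and 984 for these 4 results in turn. Deviations of same-numbered arrays had an r from -0.0779 to 0.0862 in the 15 °C course and from -0.0896 to 0.0771 in the water course. Under the other settings run, each count stayed within 1.5 times its main value. Of the 4 named changes of the course, each kept its direction and call under all 19 alternatives, CUST_13312_PI426483990 between -9.94 and -7.13. These 4 were likewise chosen as the largest called changes on the same arrays, so that is a description. The cause of the lower counts with normexp and of those in the water course was not tested. With the slide as a block, and within slide 2, a single 24 h array is set against 3.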

Other observations

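Water fish at 15 °C and 3 h enter none of the tests above other than through the shared spread. Among their arrays, replicate 3 stood apart from the other 2 for the 2 named probes that fell most in the course at 25 °C. CUST_13312_PI426483990 was at -1.25 there, against -5.26 and -5.64, and CUST_6587_PI426483990 at -1.32, against -5.36 and -5.78. Both were well above background on that array and not on the other 2. Replicate 3 lay on slide 2 with the 3 h arrays of the poly(I:C) course at 25 °C, where these probes had their highest signals, and replicates 1 and 2 lay on slide 1. The 3 arrays of water at 15 °C and 24 h also lay on slide 2, and both probes were not well above background on any of them. CUST_49_PI426483993 did not stand apart on replicate 3, at -2.64 beside -2.27 and -3.22. Why replicate 3 stood apart for the other 2 probes was not tested.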
